A study of Mus musculus with 27 samples.

Results

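A set of 6 genes that make, store, take up and break down serotonin in the gut was followed through 8 groups of mouse intestinal samples. The members were the 6 of the 23420 entries of the count table with the symbols Tph1, Ddc, Slc18a1, Slc6a4, Maoa and Maob, and all 6 were found. The table holds 3' tag counts (QuantSeq, a method that reads 1 tag near the 3' end of each polyadenylated transcript) for 27 libraries from C57BL/6 mice, an inbred strain, given water or 15% ethanol over 8 weeks; the series text also speaks of an alcohol diet and of permeability. The groups are water controls and ethanol mice (EtOH in the labels) in each of 4 kinds of sample: colon organoids (2 control and 2 EtOH libraries), jejunum organoids (4 and 4), colon tissue (4 and 4) and jejunum tissue (3 and 4). Organoids are cultures raised in gel from crypt stem cells, so they should hold epithelium without muscle, nerves or blood. No group carries a mutation or transgene, and age and sex are not given in the sources used here. Donor numbers differ within a group and recur under both treatments, so a number alone does not name 1 mouse. Levels are counts per 1000000 counts outside Rn45s (CPM), Rn45s being the precursor of ribosomal RNA.

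Most of the body's serotonin is made in the gut, by enterochromaffin cells, a kind of enteroendocrine cell scattered through the epithelium. Tph1 (tryptophan hydroxylase 1) carries out the rate-limiting step outside the brain, turning tryptophan into 5-hydroxytryptophan, and Ddc (aromatic L-amino acid decarboxylase) turns that into serotonin; Slc18a1 (VMAT1) loads the amine into secretory granules. Released serotonin is cleared by the transporter Slc6a4 (SERT), which enterocytes carry, and is oxidised by the monoamine oxidases Maoa and Maob of the outer mitochondrial membrane. Ddc, Maoa and Maob also act on other amines and are not restricted to enterochromaffin cells, while Tph2 is the form of tryptophan hydroxylase found in neurons.

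GENCODE vM21 (build GRCm38) places the genes at chr7:46644641-46672537 on the minus strand (Tph1), chr11:11814101-11898144 minus (Ddc), chr8:69037711-69089235 minus (Slc18a1), chr11:76998603-77032340 plus (Slc6a4), chrX:16619698-16687818 plus (Maoa) and chrX:16709282-16817366 minus (Maob). Maoa and Maob are neighbours whose 3' ends face each other across 21463 bases. Ddc, Slc18a1 and Slc6a4 each overlap at least 1 gene of the other strand. None of these overlapping genes lies within 1 kb of the member's 3' end, where the tags are read. Genes that do not overlap a member were not searched for near its 3' end.

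The RefSeq table of promoters (GRCm38.p6) matched 4 of the 6 members by symbol. The 250 bases before the start are printed for the enzyme that was higher in colon tissue (Tph1, which has 2 listed starts), for the transporter that was lower there (Slc6a4) and for the oxidase that could be tested for ethanol in colon organoids (Maoa). Capitals mark matches to any of 6 motifs, searched on both strands, so that a match to the other strand appears as its reverse complement. The letters GGGCGG are the box bound by Sp1 and its relatives. TATAAA is the classical box near many starts. AGATAA is a site of the zinc finger factors that Gata4 belongs to. TTTATG is a site of the intestinal factor Cdx2. CCAAT is a common box of its own name. TGACG is the core of the cyclic AMP response element. No matches overlap.
Tph1 first start, chr7:46672538-46672787 minus: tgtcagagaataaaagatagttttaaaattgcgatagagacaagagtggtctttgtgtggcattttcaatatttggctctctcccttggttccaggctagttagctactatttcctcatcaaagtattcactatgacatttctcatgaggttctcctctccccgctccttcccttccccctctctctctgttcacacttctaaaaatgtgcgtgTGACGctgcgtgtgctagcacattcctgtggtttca
Tph1 second start, chr7:46667378-46667627 minus: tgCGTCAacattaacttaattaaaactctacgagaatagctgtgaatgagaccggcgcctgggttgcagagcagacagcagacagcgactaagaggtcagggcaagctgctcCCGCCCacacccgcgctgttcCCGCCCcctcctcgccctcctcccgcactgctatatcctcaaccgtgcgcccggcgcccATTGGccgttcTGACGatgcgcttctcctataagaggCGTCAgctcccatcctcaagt
Slc6a4, chr11:76998347-76998596 plus: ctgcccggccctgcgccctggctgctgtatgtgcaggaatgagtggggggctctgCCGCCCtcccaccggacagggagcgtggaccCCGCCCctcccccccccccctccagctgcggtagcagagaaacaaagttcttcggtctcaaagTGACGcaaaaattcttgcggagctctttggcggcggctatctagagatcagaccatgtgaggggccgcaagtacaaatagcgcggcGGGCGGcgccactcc
Maoa, chrX:16619448-16619697 plus: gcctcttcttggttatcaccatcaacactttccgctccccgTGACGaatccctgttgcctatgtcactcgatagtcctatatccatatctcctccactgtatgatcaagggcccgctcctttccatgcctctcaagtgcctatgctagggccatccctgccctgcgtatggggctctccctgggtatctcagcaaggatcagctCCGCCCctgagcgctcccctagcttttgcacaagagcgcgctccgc

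The cyclic AMP core is in the 4 printed windows of the 6 found for members, and in neither Ddc window: once in the first Tph1 window, at 3 places in the second, once before Slc6a4 and once before Maoa, and 17.8% of the 32851 windows of the same length hold it. The Sp1 box, held by 32.7% of windows, is absent from the first Tph1 window and present at 2 places in the second, at 3 before Slc6a4 and at 1 before Maoa. The second Tph1 window also has 1 CCAAT match (33.8% of windows). The Gata4-type letters (9.99% of windows), the Cdx2-type letters (10.8%) and the classical TATAAA box (12.4%) are not in the printed windows. Ddc, also with 2 listed starts, has 1 TATAAA match in its first window, and in its second 1 Cdx2-type match and 1 CCAAT match. Tags at the 3' end do not show which start a transcript used.

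Depth differed between the groups. Total counts per library ran from 1337068 to 16312562, and counts outside Rn45s from 684906 to 7606668, with the lowest values in jejunum tissue and colon organoids. In jejunum tissue Rn45s made up 76.3 to 84.3% of a control library and 53.4 to 80.8% of an EtOH library. Of the 8 colon tissue libraries 3 (control 1, EtOH 1 and EtOH 2) held 182 to 801 CPM of Hoxb13, a gene of the most distal gut, and the other 5 at most 0.274. The members' main results that rest on colon tissue are also given without these 3. Calls of other genes are given only with them included. The jejunal factor Gata4 set the segments apart, at 96.9 to 176 CPM in the 15 jejunum libraries and at most 23.2 in the 12 colon libraries. Among the latter, control colon organoids held 7.86 and 23.2 CPM, EtOH colon organoids at most 2.46 and colon tissue at most 0.682. Car1, a colonocyte gene, stood at 912 and 1080 CPM in control and at 6381 and 10118 in EtOH colon organoids. It reached 518 CPM in control jejunum tissue 2 and at most 117 in the other jejunum libraries. Summed smooth muscle markers were at 705 to 25084 CPM in tissue and at most 178 in organoids. The 2 control colon organoid libraries differed widely in enteroendocrine genes, with a summed level of 262 and 3086 CPM over a list of 22. They also differed in Hoxb13, at 0 in control 1 and 37.9 CPM in control 2. Neither EtOH colon organoid library had a count of Hoxb13.

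Tph1 was found mainly in colon. In colon tissue it stood at 17.2, 24.3, 65.8 and 52.2 CPM in the 4 controls and at 5.23, 10.3, 83.4 and 67.1 CPM in the 4 EtOH libraries. In jejunum tissue it stood at 2.18, 14.6 and 0 CPM in controls and at 1.43, 5.84, 0.432 and 1.45 CPM with EtOH, so that every control colon library lay above every control jejunum library, while EtOH colon 1 (5.23) lay just under EtOH jejunum 2 (5.84). Control jejunum 2, the highest of its group, is the library with Car1 at 518 CPM. Colon organoids held 0 and 45.2 CPM in controls and 32.4 and 58.7 with EtOH. Jejunum organoids held 13.8, 13.0, 3.21 and 8.91 CPM in controls and 8.84, 12.3, 5.604 and 4.95 with EtOH. In CPM this band was narrower than that of any colon group, but at lower means. By group mean the order ran from EtOH colon organoids (45.5 ± 18.7 CPM, SD, n = 2) through EtOH colon tissue (41.5 ± 39.6, n = 4), control colon tissue (39.9 ± 23.0, n = 4), control colon organoids (22.6 ± 32.0, n = 2), control jejunum organoids (9.73 ± 4.84, n = 4), EtOH jejunum organoids (7.93 ± 3.39, n = 4) and control jejunum tissue (5.59 ± 7.88, n = 3) to EtOH jejunum tissue (2.29 ± 2.42, n = 4), and 0 of the 7 neighbouring pairs had ranges apart. Tph2 was at 0 in all libraries but EtOH colon organoid 1, where it had 1 count.

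Within colon tissue Tph1 had a wide spread in both treatments, and its level moved with the distal marker. The 3 libraries with Hoxb13 held 17.2, 5.23 and 10.3 CPM of Tph1 and the other 5 held 24.3 to 83.4, so these sets did not overlap. Chga (chromogranin A, a granule protein of enteroendocrine cells) stood at 43.8, 42.1, 199 and 143 CPM in control and at 22.7, 38.6, 209 and 186 in EtOH colon tissue. Control 2, without Hoxb13, thus shared the low Chga and the lower Tph1 of the Hoxb13 libraries. Slc18a1 shared the split into high and low libraries, with 2.36, 2.83, 9.05 and 6.50 CPM in control and 2.502, 4.56, 11.3 and 12.7 in EtOH colon tissue. Its 4 highest libraries are the 4 with Chga over 100. In bulk RNA fewer cells of a type and less RNA per cell cannot be told apart.

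**Figure D1:**
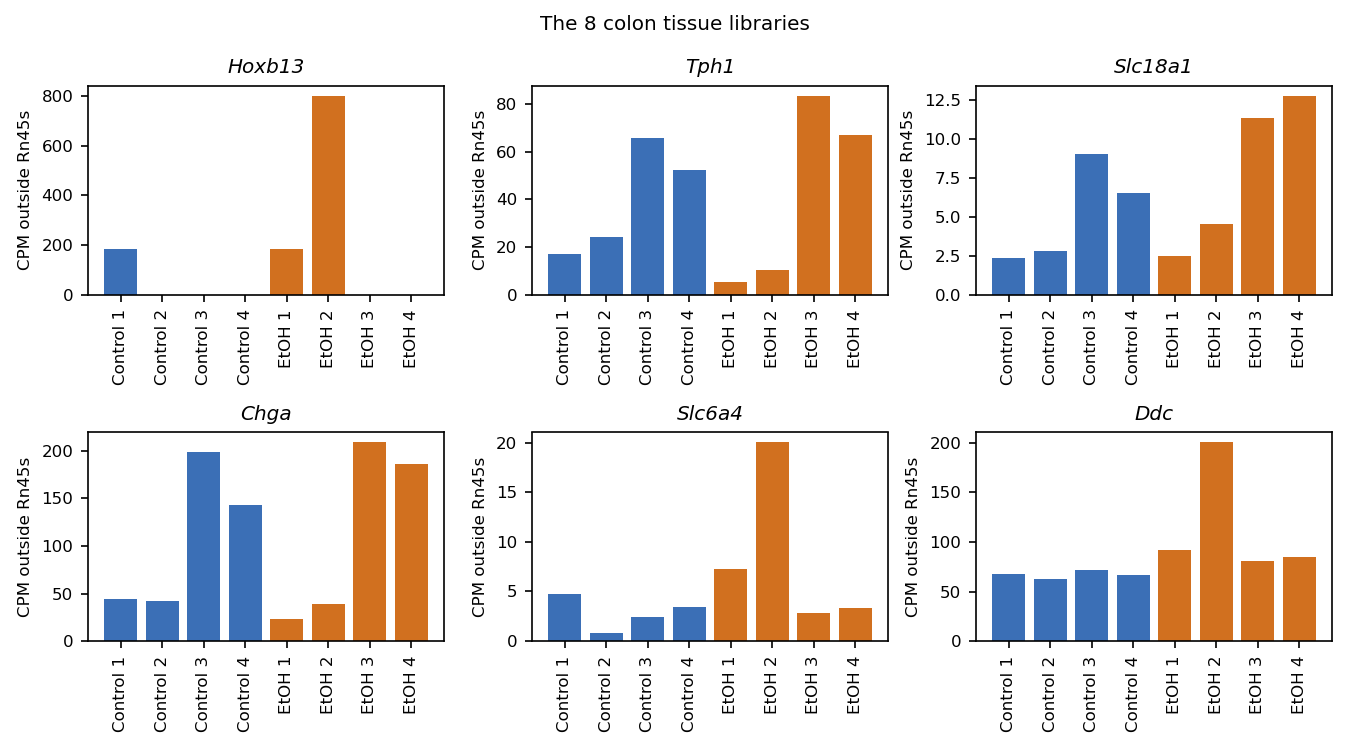
Bars give the level (CPM outside Rn45s, linear axis from 0) of Hoxb13, Tph1, Slc18a1, Chga, Slc6a4 and Ddc in each of the 8 colon tissue libraries, blue for controls and orange for EtOH. Replicates 3 and 4 of both treatments hold the highest Tph1, Slc18a1 and Chga, and EtOH 2, with 801 CPM of Hoxb13, holds the highest Slc6a4 (20.01) and Ddc (200.3).

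Ddc was higher in jejunum than in colon. Control colon tissue held a tight 67.3, 62.2, 71.9 and 66.6 CPM and EtOH colon tissue 91.5, 200.3, 80.9 and 85.1, all 4 above the controls. Jejunum tissue held 199.6, 200.03 and 138 CPM in controls and 139, 279.9, 255 and 194 with EtOH. Colon organoids held 19.6 and 109 CPM in controls and 36.2 and 73.6 with EtOH, below every library of the jejunum organoids. Those held 192, 119.5, 290.2 and 181 CPM in controls and 276, 378, 429 and 339 with EtOH, where a single control (290.2) lay inside the EtOH range. EtOH jejunum organoids had the highest mean (355 ± 64.4 CPM, SD, n = 4) and EtOH colon organoids the lowest (54.9 ± 26.4, n = 2). The only 1 of the 7 neighbouring pairs with ranges apart was EtOH colon tissue (114 ± 57.4, n = 4) above control colon tissue (67.0 ± 3.96, n = 4). Between those groups ranges were apart for 3.35% of genes tested.

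Slc18a1 was low everywhere and showed no clear order by segment. Colon organoids held 9.82 and 29.3 CPM in controls and 9.49 and 43.1 with EtOH. Jejunum organoids held 13.3, 13.7, 7.80 and 13.9 CPM in controls and 10.2, 12.3, 10.9 and 8.15 with EtOH. Jejunum tissue held 2.90, 10.2 and 1.32 CPM in controls and 0.476, 3.98, 5.62 and 4.08 with EtOH, from 1 to 31 counts a library. The 4 organoid groups had means of 10.4 to 26.3 CPM and the 4 tissue groups means of 3.54 to 7.78, and 0 of the 7 neighbouring pairs had ranges apart.

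Slc6a4 was a jejunal gene in these samples. Control colon organoids had no count in either library and EtOH colon organoids 2.11 and 0 CPM, from 6 counts. Jejunum organoids held 42.0, 39.4, 35.1 and 46.3 CPM in controls and 41.5, 44.3, 59.3 and 31.4 with EtOH, so the groups overlapped and every library was above every colon library. In colon tissue the levels were 4.72, 0.848, 2.47 and 3.45 CPM in controls and 7.28, 20.01, 2.88 and 3.37 with EtOH. The 2 EtOH libraries above all controls are the 2 with Hoxb13, and of the controls the 1 with Hoxb13 was highest. Jejunum tissue held 24.7, 55.5 and 26.5 CPM in controls and 11.9, 22.6, 25.1 and 23.5 with EtOH. The means ran from 44.1 ± 11.5 CPM (SD, n = 4) in EtOH jejunum organoids down to 2.87 ± 1.64 (n = 4) in control colon tissue and 0 in control colon organoids, and 0 of the 7 neighbouring pairs had ranges apart.

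Maoa was abundant in all groups, and its extremes were the 2 colon organoid groups. Control colon organoids held 369.8 and 584 CPM and EtOH colon organoids 1977 and 2718. All other groups lay between them but for 1 library: jejunum organoids held 895, 1081, 1136 and 1254 CPM in controls and 1074, 1233, 1378 and 1148 with EtOH. Colon tissue held 310.4, 974, 1095 and 999.3 CPM in controls, where the low library is the one with Hoxb13, and 620.2, 608, 825 and 918 with EtOH, where the lower 2 are again those with Hoxb13. Jejunum tissue held 1104, 797 and 1255 CPM in controls and 955, 787, 1098 and 1449 with EtOH. The mean of EtOH colon organoids (2348 ± 524 CPM, SD, n = 2) was apart from the next (EtOH jejunum organoids, 1208 ± 130, n = 4). At the other end EtOH colon tissue (743 ± 153, n = 4) was apart from control colon organoids (477 ± 152, n = 2). The other 5 of 7 neighbouring pairs overlapped.

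Maob had the most neighbouring groups with ranges apart among the 6. Control colon organoids had no count and EtOH colon organoids 21.4 and 3.72 CPM, from 61 and 5 counts. Colon tissue held 38.7, 29.7, 56.8 and 49.1 CPM in controls and 59.1, 70.3, 59.9 and 62.1 with EtOH, all 4 above the controls. Jejunum tissue held 76.9, 123 and 87.4 CPM in controls and 31.9, 100.1, 116 and 65.9 with EtOH. Jejunum organoids had the highest means, with 124, 125, 110.1 and 125 CPM in controls and 136, 130.0, 133 and 101 with EtOH. From EtOH colon tissue (62.9 ± 5.13 CPM, SD, n = 4) through control colon tissue (43.6 ± 11.9, n = 4) and EtOH colon organoids (12.6 ± 12.5, n = 2) to control colon organoids each step had ranges apart, 3 of the 7 neighbouring pairs, and the steps between the jejunum groups did not. Ranges were apart for 41.7% of genes tested between the colon organoid groups and for 3.35% between the colon tissue groups. The lower EtOH colon organoid library (3.72 CPM) was near the 3.67 CPM that 3 counts make in control colon organoid 2.

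**Figure D2:**
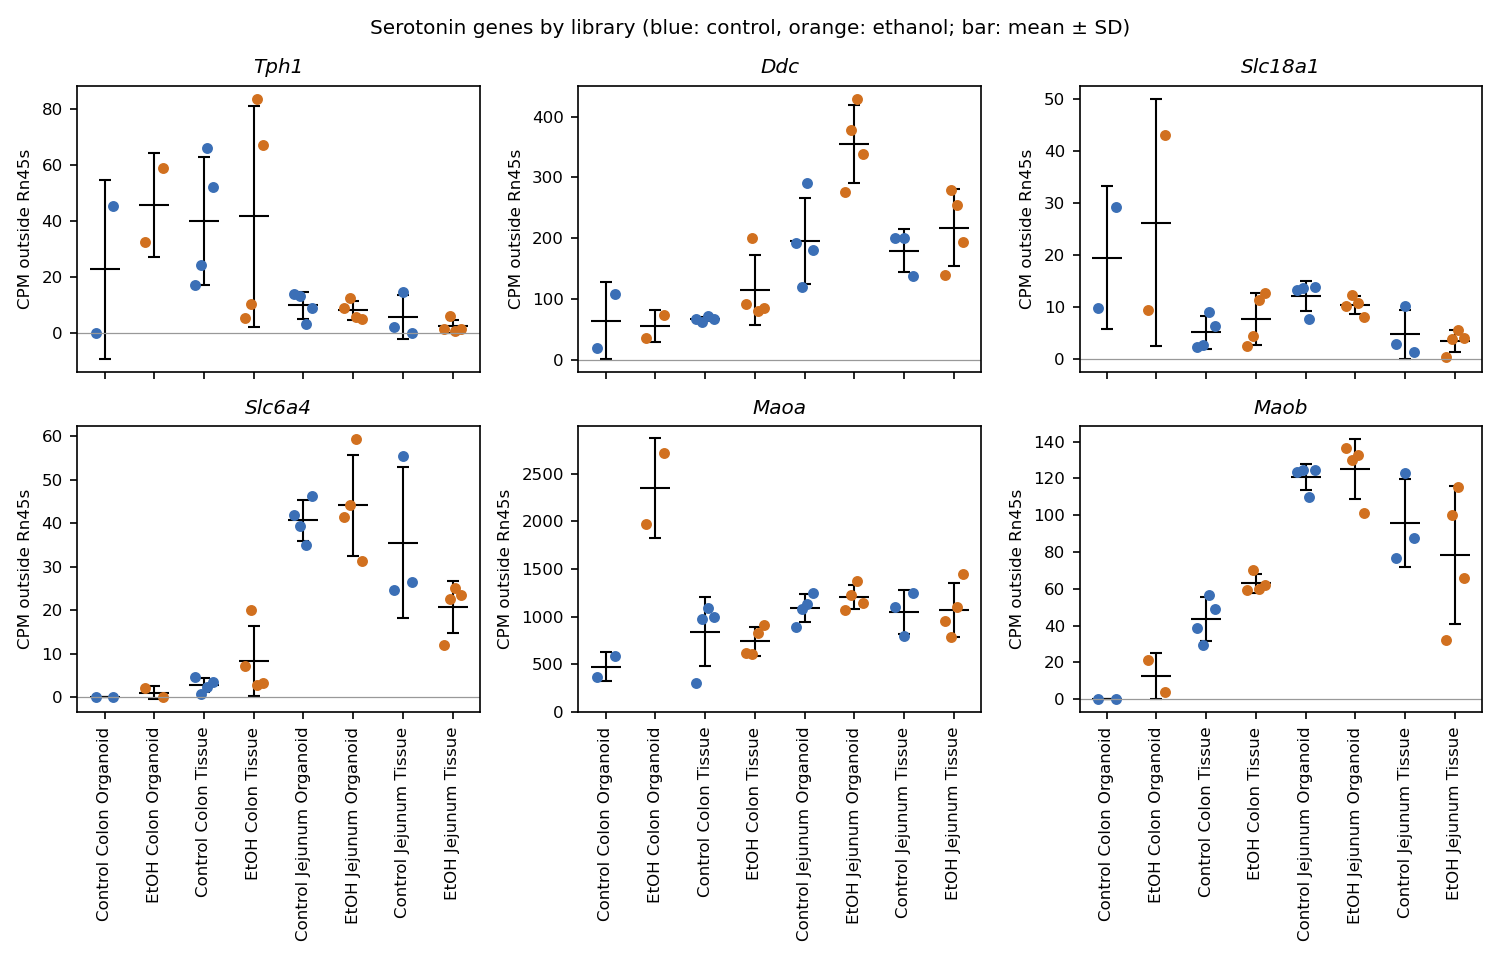
Each panel gives a gene's level (CPM outside Rn45s, linear axis) in every library of the 8 groups, blue for controls and orange for EtOH, with the group mean (long bar) and SD (whiskers, which can pass below 0 in groups with wide spread). Slc6a4 and Maob sit high in the 4 jejunum groups on the right, Tph1 in the colon groups on the left, and the EtOH colon organoids stand alone in Maoa at 1977 and 2718.

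The first comparison set colon against jejunum, the segment difference, within each treatment and kind of sample. Calls rest on an adjusted p under 0.05 in edgeR's quasi-likelihood test, with Benjamini-Hochberg adjustment over all genes tested. In control tissue, where 43.7% of the genes tested were called, 4 of the 6 members were called. Tph1 was higher in colon, with a log2 fold change of 2.82 ± 0.88 (SE) and an adjusted p of 0.0240. Ddc (-1.88 ± 0.20, adjusted p = 3.77e-05), Slc6a4 (-3.99 ± 0.46, adjusted p = 7.47e-05) and Maob (-1.58 ± 0.25, adjusted p = 0.000602) were lower. Maoa (-0.77 ± 0.43, adjusted p = 0.166) and Slc18a1 (-0.11 ± 0.77, adjusted p = 0.923) were not called. The Tph1 call did not hold without the filter on low counts (adjusted p = 0.0540), with 1 spread shared by all tissue groups (0.101) or in limma-voom with group weights (0.222), nor in edgeR without control colon 3 (adjusted p = 0.0586) or 4 (0.0517) or without control jejunum 1 (0.107) or 3 (0.0779), and in edgeR without the Hoxb13 library, control colon 1, its value was 3.18 (adjusted p = 0.00554). Ddc (-1.78), Slc6a4 (-4.21) and Maob (-1.43) were also still called without that library.

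In EtOH tissue, where 47.3% of genes were called, 5 of the 6 were called. Tph1 was higher in colon (3.73 ± 1.05, edgeR adjusted p = 0.0156), and Ddc (-1.48 ± 0.33, adjusted p = 0.00324), Slc6a4 (-1.91 ± 0.55, adjusted p = 0.0131), Maoa (-1.06 ± 0.29, adjusted p = 0.0104) and Maob (-0.88 ± 0.34, adjusted p = 0.0499) were lower. Slc18a1 was not called (0.56 ± 0.64, adjusted p = 0.497). The Tph1 call did not hold in edgeR without the filter (adjusted p = 0.0504) or in limma-voom with group weights (0.135), nor that of Maoa with group weights (0.0670). Ranges overlapped for all 6. Without EtOH colon 1 and 2, the libraries with Hoxb13, the values of Tph1 and Slc6a4 were larger, at 4.53 (adjusted p = 4.78e-05) and -3.26 (adjusted p = 0.000163), and those of Maoa (-0.83, adjusted p = 0.0561) and Maob (-0.91, adjusted p = 0.103) were no longer called. The Maob call did not hold without any 1 of 7 of the 8 libraries (adjusted p of 0.0545 to 0.172), EtOH jejunum 1 being the exception.

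Tissue values depend on scaling. Without TMM factors (edgeR's correction for RNA composition) the median log2 fold change of all genes moved from 0.25 to 0.72 in control and from 0.12 to 0.67 in EtOH tissue. On that scaling Maoa, Maob and Slc6a4 in EtOH tissue were not called (-0.53, adjusted p = 0.109; -0.32, adjusted p = 0.409; -1.33, adjusted p = 0.0558), and no called member changed direction.

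In control organoids, where 38% of genes were called, 3 of the 6 were called, all lower in colon, as were 21.2% of genes. Slc6a4 was at least 38.7-fold lower (adjusted p = 0.00132) and Maob at least 115-fold lower (adjusted p = 0.000501), both against a floor of 3 counts over the colon group, since neither colon library had a count. Both passed the filter on low counts through the jejunum group alone, so neither could have been called higher in colon. Without control colon organoid 1, the deeper of the pair, the bounds are at least 11.1-fold and at least 32.9-fold. Maoa was lower, at -1.55 ± 0.23 on the log2 scale (edgeR adjusted p = 0.00397). In limma-voom with group weights Maob was still called (adjusted p = 0.0162), and Slc6a4 (0.0754) and Maoa (0.0546) were not. Ddc missed the threshold (-2.06 ± 0.67, adjusted p = 0.0505), with 19.6 and 109 CPM in colon against 119.5 to 290.2 in jejunum; it was called in DESeq2 (adjusted p = 0.0156) and in edgeR without control colon 1 (0.0489) or 2 (0.00159). Tph1 (0.69 ± 1.41) and Slc18a1 (0.26 ± 0.58) were not called, with 0 and 45.2 CPM of Tph1 in the 2 colon libraries. Without control colon organoid 2 the control colon group has no Tph1 count, and Tph1 was called in each edgeR fit that uses the group (adjusted p = 0.00896 here, 0.0225 for ethanol in colon organoids, 0.0127 for organoids against colon tissue and 0.00205 for the organoid interaction).

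In EtOH organoids, where 60.7% of genes were called, 5 of the 6 were called. Tph1 was higher in colon (2.35 ± 0.40, edgeR adjusted p = 0.00083) and so was Maoa (0.85 ± 0.17, adjusted p = 0.00187). Ddc (-2.85 ± 0.30, adjusted p = 6.3e-05), Slc6a4 (-5.04 ± 0.59, adjusted p = 0.000111) and Maob (-3.22 ± 0.45, adjusted p = 0.000306) were lower, and Slc18a1 was not called (1.14 ± 0.51, adjusted p = 0.0788). Without EtOH colon organoid 1 Slc18a1 was called, at 1.95 (adjusted p = 0.000158), and with 1 spread shared by all organoid groups Tph1 was not (0.0568). Slc6a4 and Maob were thus called lower in colon in all 4 segment comparisons, though in control organoids they passed the filter through jejunum alone. Ddc was called lower in 3 of 4, with a value below 0 in the other, while the sign of Maoa differed between control and EtOH organoids.

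**Figure D3:**
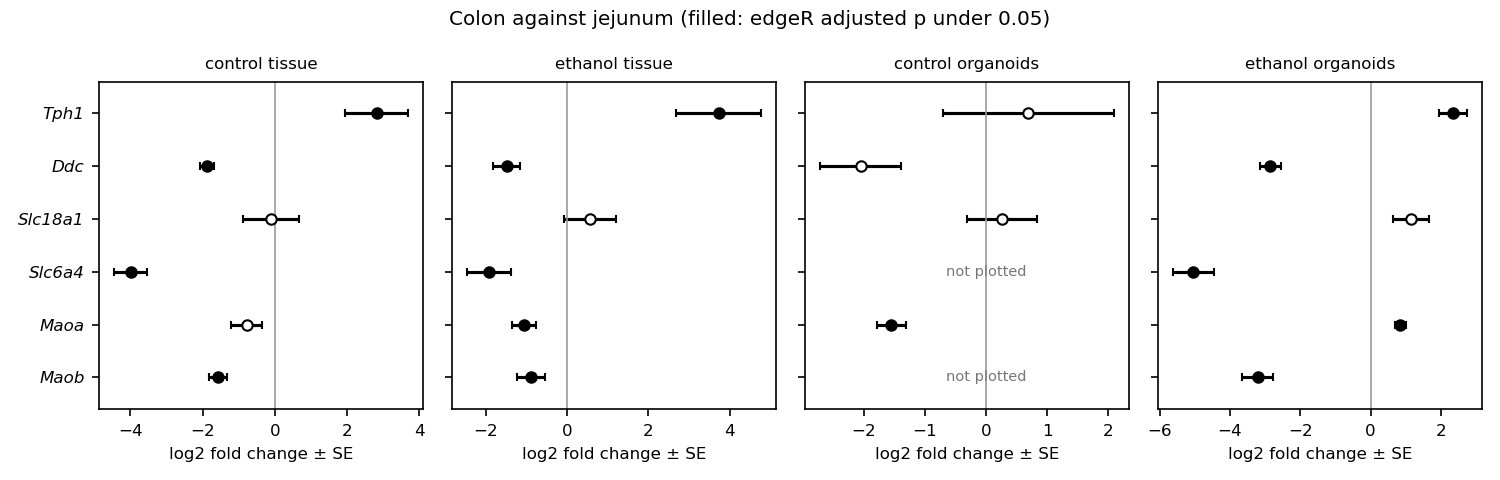
Points give the log2 fold change of colon against jejunum (x axis, scaled for each panel) for the 6 genes in control tissue, EtOH tissue, control organoids and EtOH organoids, bars the standard error, and filled points an edgeR adjusted p under 0.05. Tph1 lies right of 0 in all panels, Ddc left of it, and Maoa moves from -1.55 in control to 0.85 in EtOH organoids; Slc6a4 and Maob are not drawn for control organoids, where colon had no count.

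The second comparison, ethanol against control within each kind of sample, is the one the study was built on. In colon organoids Maoa had the largest value of the 4 members that could be tested: its EtOH libraries (1977 and 2718 CPM) lay above its controls (369.8 and 584), a log2 fold change of 2.57 ± 0.39. It was not called (edgeR adjusted p = 0.379), and no gene was: 0 of 10823, or 0%, were called, 851 had an unadjusted p under 0.05, and DESeq2 called 131. Ranges were apart for 41.7% of genes (20.1% with EtOH higher) and for 1 of the 4 members tested, Maoa. Maoa was called in DESeq2 (2.501, adjusted p = 1.78e-07), without the filter on low counts (adjusted p = 1.71e-05), with 1 spread shared by all organoid groups (adjusted p = 0.000113), and without control 1 (0.0128), control 2 (0.0163) or EtOH 1 (0.00629), but not without EtOH 2 (0.0598) or in limma-voom with group weights (0.260). Of the 8 alternative settings that kept every library, 4 called Maoa, and the edgeR adjusted p reached 0.561 among the rest. Tph1 (1.38 ± 1.85), Slc18a1 (0.71 ± 1.25) and Ddc (0.09 ± 0.90) had errors as large as their values or larger.

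Maob and Slc6a4 had too few counts in colon organoids for this test. Against the floor of 3 counts over the control group Maob was at least 11.97-fold higher with EtOH (61 and 5 counts against 0 and 0), and Slc6a4 had 6 counts in EtOH 1 and none elsewhere. The Maob bound is at least 3.54-fold without EtOH 1, 20.4-fold without EtOH 2 and 3.43-fold without control 1. Markers of other cells moved along with these values. The summed level of 8 leukocyte markers was 72.2 to 95.3 CPM in control and 161 to 536 in EtOH colon organoids, with Cd3e and Cd79a among those at 0 in both. That of 10 colonocyte markers was 1811 to 3292 against 9173 to 13248, with Hoxd10 at 0 in both. The small intestinal enterocyte list of 13 had 75.1 to 112 against 415 to 445 CPM, with Apoa4, Apob and Slc2a5 at 0 in controls. The part of these in the Maoa and Maob values was not tested. Depth, too, differed, with 818240 and 2036195 counts outside Rn45s in the control libraries.

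In colon tissue 0 of 12799 genes (0%) were called, 690 had an unadjusted p under 0.05, and DESeq2 called 10. Ranges were apart for 3.35% of genes (2.45% with EtOH higher) and for 2 of the 6 members, Ddc (0.73 ± 0.27, edgeR adjusted p = 0.891) and Maob (0.51 ± 0.20, adjusted p = 0.891), both higher in all 4 EtOH libraries. Slc6a4 had the largest value (1.46 ± 0.65, adjusted p = 0.891) with overlapping ranges, and without the 3 Hoxb13 libraries it was 0.44 ± 0.53. Ddc without them was 0.32 ± 0.17 and Maob 0.44 ± 0.22. Tph1 (0.09 ± 0.85), Slc18a1 (0.62 ± 0.61) and Maoa (-0.23 ± 0.40) overlapped. Without these libraries Tph1 stood at 0.68 ± 0.30 (adjusted p = 0.339) and Slc18a1 at 0.98 ± 0.37 (adjusted p = 0.242). The Hoxb13 libraries are 1 of 4 controls and 2 of 4 EtOH libraries.

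In jejunum organoids 0 of 10640 genes (0%) were called, 759 had an unadjusted p under 0.05, and DESeq2 called 8. Ddc was the member with the largest value, 0.86 ± 0.23 (edgeR adjusted p = 0.602), and in DESeq2 it was called at 0.86 (adjusted p = 0.0481). Ranges were apart for 3.8% of genes and for 0 of the 6 members. Maoa at 0.14 ± 0.12, Maob at 0.05 ± 0.12 and Slc6a4 at 0.10 ± 0.18 were close to 0 with small errors. Slc18a1 at -0.24 ± 0.24 and Tph1 at -0.29 ± 0.42 had larger errors.

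In jejunum tissue 1 of 9996 genes (0.01%) was called, which was no member, and 592 had an unadjusted p under 0.05. Tph1 and Slc18a1, with at most 31 counts a library, were too low to be tested. Slc6a4 was at -0.66 ± 0.37 (edgeR adjusted p = 0.868), Ddc at 0.31 ± 0.29, Maob at -0.22 ± 0.36 and Maoa at 0.03 ± 0.30. Ranges were apart for 7.05% of genes and for 0 of the 4 members tested.

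**Figure D4:**
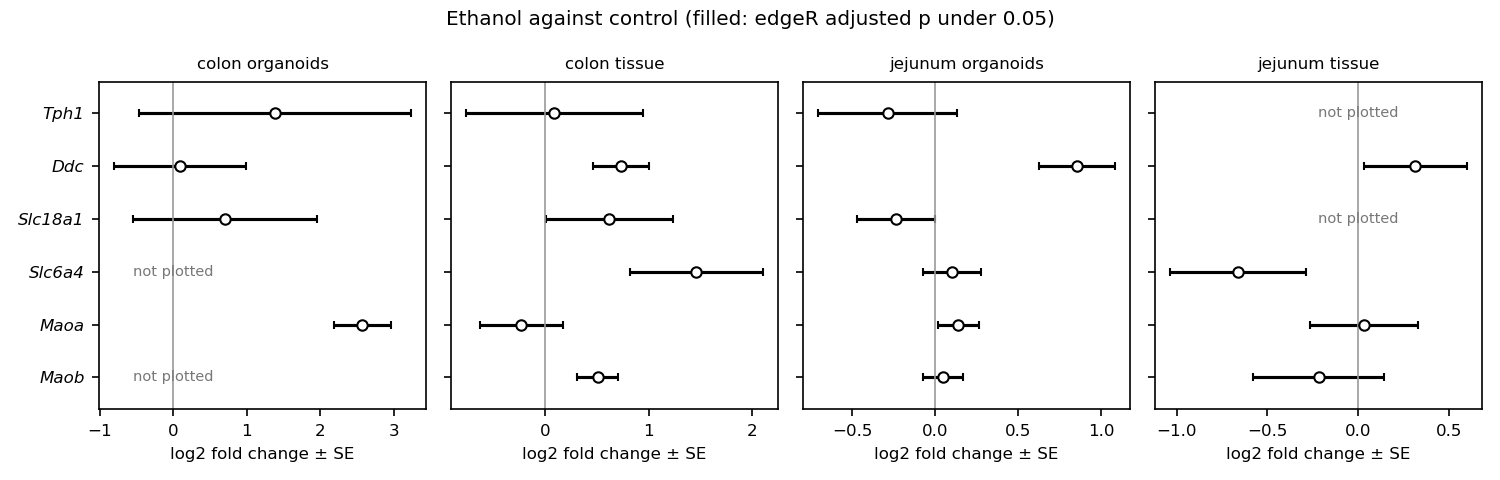
Points give the log2 fold change of EtOH against control (x axis, scaled for each panel) for the 6 genes in colon organoids, colon tissue, jejunum organoids and jejunum tissue, and bars the standard error. No point is filled, since no edgeR adjusted p was under 0.05; Maoa in colon organoids (2.57) and Ddc in jejunum organoids (0.86) lie farthest from 0 in units of their error, and genes too low to test are not drawn.

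The difference of the ethanol effect between colon and jejunum was tested as an interaction. In organoids, where 9.49% of the 13170 genes were called, 2 of the 6 members were called, both higher, as were 7.4% of genes. Maoa was at 2.43 ± 0.28 (edgeR adjusted p = 0.000831). The Maob call (adjusted p = 0.00854) sets 61 and 5 counts against 0 and 0 in colon, where Maob alone was too low to be tested, and it passed the filter on low counts here with the jejunum groups, so its fitted value is no measure of size. This fit gives all 4 organoid groups 1 spread, while the colon groups varied more than the jejunum groups; in limma-voom with a weight for each group neither was called (Maoa adjusted p = 0.407, Maob 0.646). Tph1 (1.76 ± 1.44), Ddc (-0.72 ± 0.70), Slc18a1 (0.96 ± 0.82) and Slc6a4 (adjusted p = 0.145) were not called, and Ddc was called without control colon organoid 1 (-1.53, adjusted p = 0.0382). In tissue 0 of 13405 genes (0%) were called, 853 had an unadjusted p under 0.05, and DESeq2 called 2. The largest member value there was Slc6a4, at 2.06 ± 0.76 (edgeR adjusted p = 0.696), and 1.13 ± 0.67 without the Hoxb13 libraries. Tph1 (0.90 ± 1.74), Slc18a1 (0.66 ± 1.07), Maob (0.68 ± 0.45), Ddc (0.37 ± 0.41) and Maoa (-0.31 ± 0.53) were not called there.

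The last comparison set organoids against the tissue of the same segment. In control colon, where 29.7% of genes were called, 2 of the 6 were called, both lower, as were 21% of genes: Maob was at least 41.5-fold lower in organoids (edgeR adjusted p = 0.00439) and Slc6a4 at least 2.73-fold lower (adjusted p = 0.0372), both against the floor of 3 counts. Both passed the filter on low counts through colon tissue alone, so neither could have been called higher in organoids. Without organoid 1 the Maob bound is at least 11.89-fold and the Slc6a4 level is under the floor. The Slc6a4 call did not hold in edgeR without organoid 1 (adjusted p = 0.0899) or tissue 3 (0.0836), and without tissue 4 Slc6a4 was too low to be tested. Without the Hoxb13 library, tissue 1, Maob was called (adjusted p = 0.0134) and Slc6a4 was again too low. Maoa was at -1.22 ± 0.58 (adjusted p = 0.165), and at -1.52 (adjusted p = 0.0173) without that library. Tph1 (-1.35 ± 1.42), Ddc (-0.50 ± 0.58) and Slc18a1 (1.497 ± 0.78) were not called. Ddc was called without organoid 2 (-2.01, adjusted p = 0.00149) and Slc18a1 without organoid 1 (2.06, adjusted p = 0.0451).

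In EtOH colon, where 30.2% of genes were called, 2 of the 6 were called. Maoa was higher in organoids (1.67 ± 0.31, edgeR adjusted p = 0.00675) and Maob lower (-2.18 ± 0.55, adjusted p = 0.0194). Without the 2 Hoxb13 libraries Maoa was at 1.37 (adjusted p = 0.0183) and Maob at -2.20 (adjusted p = 0.0572). Slc6a4 (-2.61 ± 1.20), Ddc (-1.05 ± 0.45), Slc18a1 (1.67 ± 0.78) and Tph1 (0.07 ± 1.01) were not called.

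In jejunum, fewer members were called in control than in EtOH libraries, a difference that was not tested. In control jejunum, where 64.4% of genes were called, only Slc18a1 of the 6 was called, higher in organoids as were 35.5% of genes (1.41 ± 0.57, edgeR adjusted p = 0.0437), and that call did not hold without any 1 of 5 of the 7 libraries (organoid 1, 2 or 4, tissue 1 or 3; adjusted p of 0.0881 to 0.185). Ddc (-0.09 ± 0.26), Slc6a4 (0.06 ± 0.28), Maoa (-0.19 ± 0.23) and Maob (0.15 ± 0.19) had values near 0, and Tph1 was at 1.03 ± 0.86. Without tissue 2, the library with Car1 at 518 CPM, Tph1 was called (2.91, adjusted p = 0.0235). In EtOH jejunum, where 67.4% of genes were called, 3 of the 6 were called, all higher in organoids, as were 34.3% of genes. They were Tph1 (1.55 ± 0.59, adjusted p = 0.0329), Slc18a1 (1.16 ± 0.44, adjusted p = 0.0318) and Slc6a4 (0.76 ± 0.27, adjusted p = 0.0216). Ddc (0.42 ± 0.23), Maob (0.37 ± 0.31) and Maoa (-0.12 ± 0.22) were not called. Without organoid 1 none of the 3 was called (adjusted p of 0.0989 for Tph1, 0.0812 for Slc18a1 and 0.0593 for Slc6a4), nor without organoid 2 (0.143, 0.102 and 0.0578) or 3 (0.0519, 0.0778 and 0.116). Tph1 was also lost without tissue 1 (0.0577), 3 (0.0811) or 4 (0.102), and Slc18a1 without tissue 4 (0.0547). Summed enterocyte markers were lower in organoids, opposite to these calls, with 23196 to 40728 CPM over 13 genes in EtOH jejunum tissue against 2833 to 5796 in EtOH jejunum organoids, and their part in the 3 calls was not tested.

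Other genes of the pathway were read from 6 lists. No list gene was called in any of the 4 ethanol comparisons. Of the 14 serotonin receptors most were too low to test. In control tissue, where 43.7% of all genes were called, 3 were tested and Htr2b was higher in colon than in jejunum (23.4 ± 10.5 against 4.46 ± 2.93 CPM, edgeR adjusted p = 0.0148). In EtOH tissue, where 47.3% of all genes were called, 3 were tested. Htr2b (edgeR adjusted p = 0.0209) and Htr4 (12.1 ± 10.8 against 0.458 ± 0.0589 CPM, adjusted p = 0.0017), a receptor tied to gut motility, were higher in colon. In control organoids, where 38% of all genes were called, the only receptor tested was called higher in colon. The Htr4 levels, like those of Slc6a4, were highest in the Hoxb13 libraries (13.9, 19.3 and 23.4 CPM against 1.13 to 5.48 in the other 5). Receptor calls in tissue are given only with those libraries included. In organoids against tissue of control colon, where 29.7% of genes were called, 1 of 4 receptors tested was higher and 2 were lower. Htr1d was higher in those organoids (10.2 ± 2.29 against 0.378 ± 0.342 CPM, edgeR adjusted p = 0.0156), and Htr2b and Htr3a, with no count in either colon organoid group, were lower than in colon tissue in both treatments.

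The genes that supply tetrahydrobiopterin, the cofactor of Tph1, and pyridoxal phosphate, that of Ddc, moved in both directions. In control tissue 2 of 11 tested were higher in colon and 3 lower (median log2 fold change -0.09, against 0.25 over all genes tested, 43.7% of them called). Pts, a synthesis enzyme, was at 50.5 ± 7.91 CPM in colon and 4.74 ± 2.82 in jejunum (edgeR adjusted p = 0.000231), and Gchfr, the feedback regulator of the first enzyme, at 6.30 ± 4.18 and 23.5 ± 6.02 (adjusted p = 0.00734). In control organoids 1 of 11 was higher in colon and 4 were lower (38% of all genes called), among them Gch1, that first enzyme (7.36 ± 3.49 against 51.9 ± 12.02 CPM, adjusted p = 0.00537), and Qdpr, which regenerates the cofactor (47.2 ± 4.18 against 442 ± 14.3, adjusted p = 0.000332).

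In the list of tryptophan uptake and the kynurenine path 2 of 13 tested were higher in colon in control tissue and 8 lower (median -1.97), where 43.7% of all genes were called. In EtOH tissue 1 of 13 was higher and 8 were lower (median -3.55, against 0.12 over all genes, 47.3% of them called). The organoid counts were 1 higher and 4 lower of 12 in control (38% of all genes called) and 3 higher and 5 lower of 12 in EtOH (60.7%). Slc6a14, an apical amino acid transporter, was at 708 ± 344 CPM in control colon and 4.62 ± 7.39 in control jejunum tissue (edgeR adjusted p = 0.00057). Slc16a10, a basolateral carrier of aromatic amino acids, went the other way, at 9.81 ± 2.54 against 127 ± 6.98 (adjusted p = 9.21e-07).

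Of the genes that act after or beside the oxidases, 7 of 18 were higher in colon in control tissue and 5 lower (median 0.51, with 43.7% of all genes called). In EtOH tissue 6 of 18 were higher and 5 lower (47.3% of all genes called). In organoids 1 of 14 was higher and 8 were lower in control (38%), and 1 of 15 was higher and 10 were lower in EtOH (60.7%). Aldh2, an aldehyde dehydrogenase that also clears acetaldehyde, was at 412 ± 48.0 CPM in colon and 54.8 ± 24.7 in jejunum (edgeR adjusted p = 3.21e-05). Sult1a1, a sulfotransferase, was at 334 ± 131 and 1.32 ± 2.29 (adjusted p = 1.64e-05). Of the other amine synthesis, vesicle and uptake genes, 0 of 5 tested were higher in colon in control tissue and 2 lower.

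Factors of enterochromaffin fate gave a mixed picture. In control tissue 2 of 7 tested were higher in colon and 0 lower (43.7% of all genes called), and in EtOH tissue 5 of 9 were higher and 1 lower (47.3%). In control organoids 3 of 13 were higher and 3 lower (38%), and in EtOH organoids 5 of 13 were higher and 1 lower (60.7%). Fev, a factor of serotonin cells, and Lmx1a, which acts upstream of Tph1 and was chosen after its values were seen, had no count in control colon organoids, while EtOH colon organoids held 9.85 and 23.8 CPM of Fev and 5.98 and 23.8 of Lmx1a. In those libraries Tph1 stood at 32.4 and 58.7 CPM, and in control colon organoid 2 it stood at 45.2 with both factors at 0 and Chga at 639. Neither factor was called with ethanol. In the organoid interaction 5 of 14 of these factors and 2 of 11 cofactor genes were called higher, against 7.4% of all genes, and 0 and 1 lower. Of the 16 factors listed, 6, Fev and Lmx1a among them, had no count in control colon organoids. Genes at 0 there could enter that fit only through other groups, as Maob did. With group weights that fit called no gene.

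Other sources of these transcripts were read from marker lists. Mast cells make serotonin in mice. The 12 genes listed as their markers summed to 80.4 to 191 CPM in colon tissue and 11.95 to 27.8 in jejunum tissue. Of these the defining Fcer1a and Ms4a2 were at 0 in all 4 tissue groups, Tpsb2 at most 1.44 CPM and Cpa3 at most 0.227. The tissue sums thus come mostly from other genes of the list and do not by themselves show mast cells. In jejunum organoids the list summed to 10.9 to 24.0 CPM, close to jejunum tissue, with 9 of the 12 at 0 in both groups and Tph1 at 3.21 to 13.8 CPM. Colon organoids held a summed 9.33 to 75.8 CPM in controls and 9.49 to 23.0 with EtOH. Of the list Cpa3 stood at 17.1 CPM in control colon organoid 2. The part of mast cells in the levels of Tph1 was not tested. Of 15 enteric neuron markers, summed at 289 to 786 CPM in colon tissue and 58.2 to 204 in jejunum tissue, jejunum organoids held a summed 6.85 to 11.9996, with Slc6a4 and Maob at tissue levels or above. Colon organoids held a summed 56.5 to 148 CPM of these neuron markers in controls and 77.7 to 178 with EtOH. The part of neurons in the members' levels was not tested. The 8 platelet markers summed to 13.9 to 31.2 CPM in colon tissue, 76.2 to 90.5 in jejunum tissue and 23.1 to 73.8 in organoids. Of them Gp1ba and Gp6 were at 0 in every group, while Pf4 was at 9.35 to 24.9 CPM in colon tissue and Ppbp reached 62.3 in control colon organoid 2. In jejunum tissue Pf4 reached 10.2 CPM and Ppbp 8.76 in controls, and 0.648 and 0.531 with EtOH. The jejunum tissue sums thus come mostly from other genes of the list and do not by themselves show platelets. The part of platelets in the members' levels was not tested.

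Across all 27 libraries the members' levels, as log2(CPM + 1), fell into a few patterns. Pearson's r was 0.84 between Slc6a4 and Ddc, 0.84 between Slc6a4 and Maob and 0.67 between Ddc and Maob, while Tph1 went with Slc18a1 (0.54) and against Slc6a4 (-0.44), and Maoa with none (0.11 to 0.27). These values describe libraries of 8 groups that share segment, culture and depth, and carry the differences between groups. Among 14127 genes the levels most like those of Slc6a4 were Sord (0.94) and Slc28a3 (0.93), and Slc28a3 was also near Ddc (0.88), whose nearest were Calml4 (0.89) and Unc5cl (0.88). Maob was nearest to Tubal3 (0.97) and Fam132a (0.96), Tph1 to Hepacam2 (0.87) and Farp2 (0.85), and Slc18a1 to Triap1 (0.86). Maoa had no close match, with Ncstn (0.72) and Cyp3a13 (0.72) the nearest.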

How the data were processed

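RNA was measured in 27 libraries. The authors deposited raw whole-number counts per gene, and the submitters' processing notes name build mm10 and the tools BWA, HTSeq, Trimmomatic 0.32, edgeR and limma. Their settings, and whether strand was used, are not given in the sources used here. A deposited normalized table without a stated unit was not used. Members and gene lists were chosen with earlier results of these data known. Groups follow the sample labels. In each comparison only the groups compared (4 for an interaction) entered edgeR 4.0.16 (R 4.3.3), without Rn45s: TMM, filterByExpr, robust quasi-likelihood F-test, two-sided, Benjamini-Hochberg adjustment over all genes kept, calls under 0.05. Tested on simulated data, the fits gave back the sizes of the changes put in, but at the spread and group size of the colon organoids the ethanol test called none of the changed genes. The SE given with an edgeR value is the size of its log2 fold change divided by the square root of the F statistic. It is therefore approximate, above all for genes with few counts. A group without counts was given a floor of 3 counts, which covers counting error only. Pathway genes named are the called ones with the 3 smallest adjusted p in each direction; the likest genes need a group mean of 5 CPM. Alternatives were DESeq2 1.42.0, limma-voom (limma 3.58.1), other scalings and filters, a replicate block, each library left out and, chosen after seeing the data, no colon tissue library above 100 CPM of Hoxb13. In all 35 pairs of replicates counts differed beyond sampling noise. P-values measure the spread between these samples, part of which may be technical. A few genes of the pathway and marker lists are not reported here by name.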

Additional observations from a re-analysis of the deposited data

Results flagged for a closer look

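Of 30 groups of member levels with at least 4 libraries, 4 held a library far from the rest, and chance gives about 1 in 20. They were Ddc in EtOH colon tissue 2 (200.3 CPM, above 80.9 to 91.5 in the others), Maoa in control colon tissue 1 (310.4 CPM, below 974 to 1095), and in control jejunum organoid 3 both Slc18a1 (7.80 CPM) and Maob (110.1 CPM), below the other 3. The first 2 are libraries with Hoxb13.

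In organoids edgeR's interaction of ethanol and segment was called for Maoa (2.43 on the log2 scale) and for Maob (fitted 8.47, with control colon organoids at 0). Maoa accordingly had opposite signs of colon against jejunum in control organoids (-1.55) and EtOH organoids (0.85). Slc6a4 had opposite signs of organoid against tissue in EtOH colon (-2.61) and EtOH jejunum (0.76); this difference was not tested.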

How the results depend on the processing

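The number of members called depended on the setting. For ethanol in colon organoids it was 0, and 1 in DESeq2, 1 without the filter, 2 with a shared spread and 1 with the replicate number as a block, with 0 to 2 on leaving out a library. For ethanol in jejunum organoids it was 0, and 1 in DESeq2. Between segments it was 4 in control tissue (no filter, shared spread, group weights and block 3 each, without a library 3 to 4, Tph1 being the one lost), 5 in EtOH organoids (4 to 6), 3 in control organoids (group weights 1, block 1, without a library 3 to 5) and 5 in EtOH tissue (no TMM factors 2, group weights 3, block 3, without the Hoxb13 libraries 3). Between organoids and tissue it was 2 in control colon (no TMM factors 1, no filter 1, group weights 0, block 0, without a library 1 to 4), 1 in control jejunum (DESeq2, DESeq2's size factors, shared spread, group weights and block 0 each, without a library 0 to 2), 2 in EtOH colon (block 4, without the Hoxb13 libraries 1) and 3 in EtOH jejunum (shared spread 0, group weights 1, without a library 0 to 3). The organoid interaction had 2, and 0 with group weights or block.

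Signs turned only for values that were not called in the comparison as tested above. Without TMM factors these were Ddc with ethanol in colon organoids (-0.21), Slc18a1 between segments in control tissue (0.31), and in organoids against tissue Ddc (0.13) and Maoa (0.051) in control and Maoa (0.17) in EtOH jejunum. With group weights they were Tph1 with ethanol in colon tissue (-0.45), between segments in control organoids (-1.91) and in the tissue interaction (-0.18). Under the replicate block Tph1 stood at -0.45 and -1.89 in the first 2 of these, Slc18a1 between segments in control organoids at -0.0082, Slc6a4 in organoids against tissue of control jejunum at -0.0058, and Maoa with ethanol in jejunum tissue at -0.11. Maoa there was -0.055 in DESeq2, -0.051 with its size factors and -0.0079 with Rn45s kept, and Slc6a4 in control jejunum -0.082 and -0.061 in the first 2 of these settings. Without the Hoxb13 libraries Slc18a1 between segments in control tissue was 0.25 and Tph1 in organoids against tissue of EtOH colon -0.80.

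Leaving out 1 library gave both signs for Ddc (-0.66 to 1.63) and Slc18a1 (-0.68 to 1.54) with ethanol in colon organoids, Tph1 in colon tissue (-0.47 to 0.47), Slc6a4 (-0.059 to 0.23) and Maob (-0.022 to 0.14) in jejunum organoids and Maoa in jejunum tissue (-0.22 to 0.16). Between segments the ranges were -8.36 (a fit with colon at 0) to 1.73 (Tph1) and -0.57 to 0.79 (Slc18a1) in control organoids, -0.16 to 1.95 (Slc18a1) in EtOH organoids and -0.59 to 0.75 (Slc18a1) in control tissue. In organoids against tissue they were -2.01 to 0.26 (Ddc, control colon), -0.31 to 0.091 (Ddc) and -0.11 to 0.38 (Slc6a4) in control jejunum, -0.32 to 0.65 (Tph1, EtOH colon) and -0.25 to 0.079 (Maoa, EtOH jejunum). In the organoid interaction they were -1.53 to 0.72 (Ddc), -0.41 to 1.70 (Slc18a1) and -0.10 to 5.83 (Slc6a4), and in the tissue interaction -0.98 to 1.89 (Tph1), -0.014 to 0.51 (Ddc) and -0.21 to 1.14 (Slc18a1). The cause of these moves was not tested. Where an arm was left with 1 library, that library was assumed to vary like the others.

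Replicate numbers were not taken to pair the samples, since the labels do not say that a number marks the same mouse. Correlations of deviations from the group means were compared, which in groups this small cannot settle the pairing. Within a treatment the median was 0.01 over 34 pairs of the same number (3 over 0.1) and -0.0008 over 100 pairs of different numbers (8 over 0.1). Across treatments it was 0.10 over 13 pairs of the same number (7 over 0.1) and -0.01 over 35 pairs of different numbers (8 over 0.1). Dropping TMM moved the median of all genes from -0.28 to 0.04 between segments in control organoids, from 0.12 to -0.13 with ethanol in colon organoids, and from 0.26 to 0.49 and 0.07 to 0.36 for organoids against tissue of control and EtOH jejunum. Genes with few counts, above all Tph1, Slc18a1 and Slc6a4 in jejunum tissue and colon organoids, are limited by depth.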
